A study of Mus musculus with 12 samples.

Results

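B and plasma cell transcripts were followed in livers of CCR1 knockout (CCR1-KO) and wild-type (WT) mice. They were chosen by gene name: the heavy chain constant genes Ighm and Igha, the kappa light chain constant gene Igkc, the joining chain gene Jchain, the B cell receptor genes Cd79a and Cd79b, the surface marker Ms4a1, the chaperone gene Mzb1 and the coactivator gene Pou2af1. These are 9 of the 27912 genes in the deposited table, and each matched 1 row. CCR1-KO replicates 65, 66 and 67 and WT replicates 62, 63 and 64 were used, each a liver library of its own under 1 number. The CCR1-KO animals lack CCR1, a receptor for inflammatory chemokines, and the WT animals are C57BL/6 mice. All were male and 8 weeks old at the start. For 12 weeks both groups ate the CL diet, which holds much fat, much cholesterol and cholate. Chow-fed livers and the other 6 libraries of the series were not analysed here. The part of Ccr1 that was deleted, and whether the groups were littermates, are not given in the sources used here. Genotype and strain background cannot be told apart.

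B cells carry an antibody on their surface as the B cell receptor, in which the immunoglobulin is paired with the signalling chains CD79A and CD79B. A naive B cell uses the mu and delta heavy chains (IgM and IgD), and class switching replaces them by gamma or alpha (IgG or IgA). Plasma cells secrete antibody, and those that make polymeric IgM or IgA add the joining chain. The liver holds few B cells in health, and it receives IgA and lymphocytes from the gut through the portal vein.

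RefSeq promoter sequences were at hand for 3 of the 9 genes, Jchain, Cd79a and Pou2af1 (build GRCm38.p6). They are shown because octamer elements, E-boxes and sites of PU.1 and EBF1 are the usual control elements of B lineage genes. Pou2af1 itself encodes the coactivator that joins the Oct proteins on the octamer. Each is written 5′ to 3′ on the gene's own strand, and ends before both the RefSeq start and the start in the table. Capitals mark a match to a searched motif on either strand.
Jchain, chr5:88527898-88528147, minus strand: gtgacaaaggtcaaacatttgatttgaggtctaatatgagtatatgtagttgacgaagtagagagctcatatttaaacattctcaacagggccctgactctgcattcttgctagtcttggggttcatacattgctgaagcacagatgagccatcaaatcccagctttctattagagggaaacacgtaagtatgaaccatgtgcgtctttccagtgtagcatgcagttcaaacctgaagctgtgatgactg
Cd79a, chr7:24897247-24897380, plus strand: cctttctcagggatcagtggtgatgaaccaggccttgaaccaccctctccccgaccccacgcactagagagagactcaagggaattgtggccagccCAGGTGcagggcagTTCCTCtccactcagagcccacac
Pou2af1, chr9:51213440-51213689, plus strand: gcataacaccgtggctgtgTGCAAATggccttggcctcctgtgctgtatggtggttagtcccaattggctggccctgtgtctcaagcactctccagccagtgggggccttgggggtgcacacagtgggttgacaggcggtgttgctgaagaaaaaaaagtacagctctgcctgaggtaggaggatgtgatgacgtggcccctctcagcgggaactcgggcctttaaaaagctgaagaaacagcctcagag

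Within 250 bases upstream of the RefSeq start, the full octamer ATGCAAAT was in none of the 3 and in 1.60% of 32851 mouse promoter windows of the same length, both strands searched. Its last 7 letters, TGCAAAT, were in the Pou2af1 window and in 3.56% of all windows. This shorter form overlaps the octamer and was added after the sequences had been seen. The Cd79a window held the E-box CAGGTG, found in 17.2% of windows, and the PU.1-type sequence GAGGAA on the minus strand, found in 23.3%. The EBF1-type palindrome was in none of the 3 and in 0.779% of windows. A match describes letters and not a bound site.

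The table's positions of all 9 genes are identical to those of GENCODE M21, mouse build GRCm38. Ighm (ENSMUSG00000076617, chromosome 12, 113418558 to 113422730, minus strand) and Igha (ENSMUSG00000095079, chromosome 12, 113254830 to 113260236, minus strand) are constant region genes of the heavy chain locus. Igkc (ENSMUSG00000076609, chromosome 6, 70726435 to 70726966, plus strand) is the constant region of the kappa locus. Jchain lies on chromosome 5 (88519809 to 88527891, minus strand), Cd79a on chromosome 7 (24897381 to 24902197, plus strand) and Cd79b on chromosome 11 (106311341 to 106314762, minus strand). Ms4a1 lies on chromosome 19 (11249675 to 11266241, minus strand) and Pou2af1 on chromosome 9 (51213708 to 51240080, plus strand). The annotation places another gene model over Igkc, Ms4a1, Mzb1 and Pou2af1.

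The libraries had between 74699391 and 79154085 reads assigned to genes. Levels are given as reads, as CPM (counts per 1000000 reads, scaled for library composition), where 1 read was worth 0.0113 to 0.0167 CPM, or as deposited FPKM (fragments per kilobase of gene and per 1000000 fragments), which alone allows levels of different genes to be compared. Fold changes are log2 ratios, CCR1-KO over WT, with their standard error (SE). Each of 17729 genes was tested by the quasi-likelihood method of edgeR, p-values were adjusted after Benjamini and Hochberg, and a gene was called where that value was under 0.05. The targeted transcript, Ccr1, had 11, 4 and 14 reads in CCR1-KO and 100, 23 and 123 in WT, and missed the threshold (log2 fold change -2.72 ± 0.76, edgeR adjusted p = 0.075). Over all genes 501 lay higher and 640 lower in CCR1-KO, or 6.44% of those tested. Scaled by library totals alone the split was 219 higher and 857 lower, and the median of all genes shifted to -0.30.

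CCR1-KO replicates 66 and 67 stood apart from the other 4 libraries in pan-leukocyte transcripts. The summed level of 8 pan-leukocyte genes was 24.6 and 27.1 CPM in CCR1-KO replicates 66 and 67, against 56.9 CPM in CCR1-KO replicate 65 and 60.2 to 70.5 CPM in WT. Replicate 65 was the highest of all 6 libraries for summed T cell, macrophage and red cell genes. Its red cell genes summed to 672 CPM, against 245 and 312 CPM in the other CCR1-KO livers and 291 to 494 CPM in WT.

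None of the 9 transcripts passed the threshold, beside 6.44% of all tested genes. All 9 passed the filter on low counts. At an unadjusted p under 0.05 there were 2, Ighm and Igha, and 24.4% of all tested genes were under it, a share close to that of the 9. DESeq2 gave an adjusted p for 7 of the 9 and called these 2, Ighm lower and Igha higher, beside 14.4% of all genes. Limma on log2(FPKM + 0.5) called Ighm alone among the 3 it tested (10.5% of all genes). Over all genes limma called 223 higher and 1088 lower, with a median log2 fold change of -0.23. Its lower calls, here and below, are to be read beside that shift. The edgeR fold changes of the 9 pointed in different directions, positive for Igha, Igkc and Jchain and negative for the other 6. Their median was -1.09, beside 0.0017 over all genes. A difference in the number of B or plasma cells and one in RNA per cell cannot be told apart in bulk liver RNA.

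**Figure D1:**
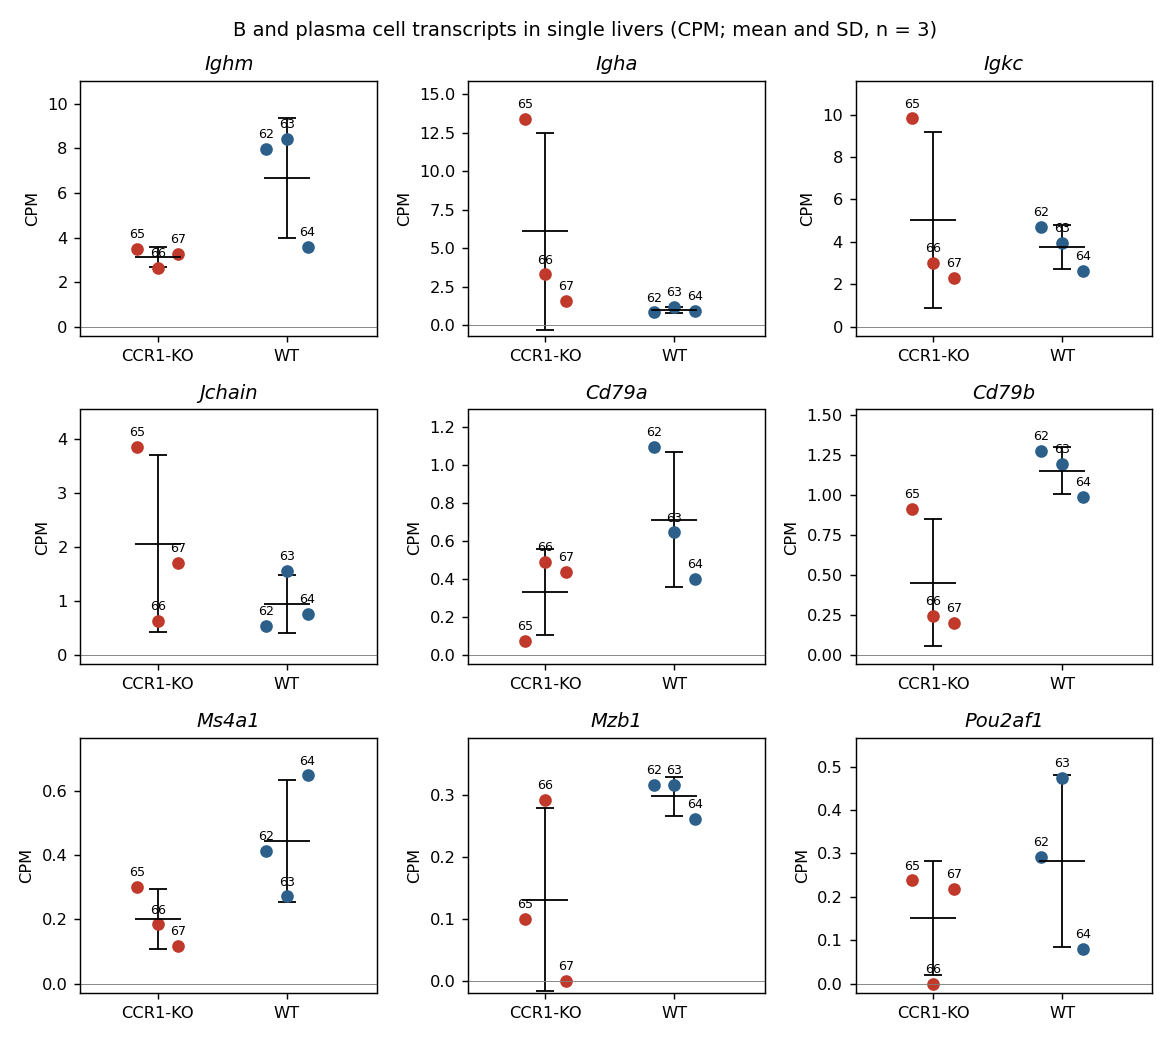
Level of each transcript in CPM (vertical axis, linear and starting near 0) in single livers, numbered by replicate, CCR1-KO left and WT right, with the group mean and SD (n = 3). CCR1-KO replicate 65 stands far above the other livers for Igha, at 13.4 CPM, and is the highest for Igkc and Jchain, while Ighm and Cd79b lie lower in every CCR1-KO liver.

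For Ighm, the heavy chain of IgM, 278, 171 and 196 reads were counted in CCR1-KO replicates 65, 66 and 67, against 658, 745 and 314 in WT replicates 62, 63 and 64. Scaled, these were 3.48, 2.62 and 3.28 CPM in CCR1-KO, against 7.99, 8.42 and 3.57 CPM in WT. The groups did not overlap, but WT replicate 64 lay just above CCR1-KO replicate 65. Of all tested genes, 17.4% had CCR1-KO libraries entirely below WT. The means were 3.13 ± 0.448 CPM in CCR1-KO and 6.66 ± 2.68 CPM in WT (SD, n = 3 each), a log2 fold change of -1.09 ± 0.33 (edgeR adjusted p = 0.095). By exact permutation of libraries, two-sided, p was 0.10 for Ighm, Igha and Cd79b, which with 3 libraries a group is the lowest possible, and it was larger for the other 6. Ighd, the delta heavy chain of naive B cells and not one of the 9, had 62, 4 and 11 reads in CCR1-KO, against 186, 126 and 69 in WT (log2 fold change -2.10 ± 0.82, edgeR adjusted p = 0.17).

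Igha, the heavy chain of IgA, lay on the other side of WT. Its reads numbered 1071, 216 and 95 in CCR1-KO replicates 65, 66 and 67, against 69, 106 and 81 in WT. In CPM this was 13.4, 3.31 and 1.59 in CCR1-KO, against 0.838, 1.20 and 0.921 in WT. The CCR1-KO livers were spread widely and all lay above WT, a separation that 15.2% of all tested genes shared in the higher direction. In deposited FPKM, however, CCR1-KO replicate 67 at 0.42 lay below WT replicate 63 at 0.45, so the groups were apart in scaled CPM but not in FPKM. The means were 6.10 ± 6.38 CPM in CCR1-KO and 0.986 ± 0.188 CPM in WT (SD, n = 3 each), with a log2 fold change of 2.63 ± 0.72 (edgeR adjusted p = 0.072). Without CCR1-KO replicate 65 the fold change was 1.31 (edgeR adjusted p = 0.067). Without CCR1-KO replicate 67 it was 3.08 and passed (edgeR adjusted p = 0.048), where 2.14% of all genes did.

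Igkc, the constant region of the kappa light chain that most mouse antibodies carry, was the most abundant of the 9 per length. It had 17.8, 4.49 and 3.09 FPKM in CCR1-KO, against 8.52, 7.57 and 5.23 FPKM in WT. Its reads were 785, 196 and 138 in CCR1-KO and 386, 351 and 230 in WT, so CCR1-KO replicate 65 was the highest library and the other CCR1-KO livers held the lowest read counts. In CPM the groups overlapped on both sides, at 9.82, 3.00 and 2.31 in CCR1-KO and 4.69, 3.97 and 2.62 in WT, with CCR1-KO replicate 66 above WT replicate 64. The log2 fold change was 0.43 ± 0.53 (edgeR adjusted p = 0.67), and without CCR1-KO replicate 65 it turned to -0.50. The lambda constant genes Iglc1, Iglc2 and Iglc3 together took 4.15%, 4.39% and 14.8% of light chain constant reads in CCR1-KO replicates 65, 66 and 67, against 9.60%, 14.8% and 14.2% in WT. CCR1-KO replicate 67 was level with the highest WT liver, and the other CCR1-KO livers lay below WT.

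Jchain links IgM or IgA units into polymers. It had 308, 41 and 102 reads in CCR1-KO, against 44, 138 and 67 in WT, or 3.85, 0.628 and 1.71 CPM in CCR1-KO against 0.535, 1.56 and 0.762 CPM in WT. The groups overlapped, with the lowest values in WT replicate 62 and CCR1-KO replicate 66. The log2 fold change was 1.12 ± 0.66 with all libraries (edgeR adjusted p = 0.34) and 0.29 without CCR1-KO replicate 65.

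**Figure D2:**
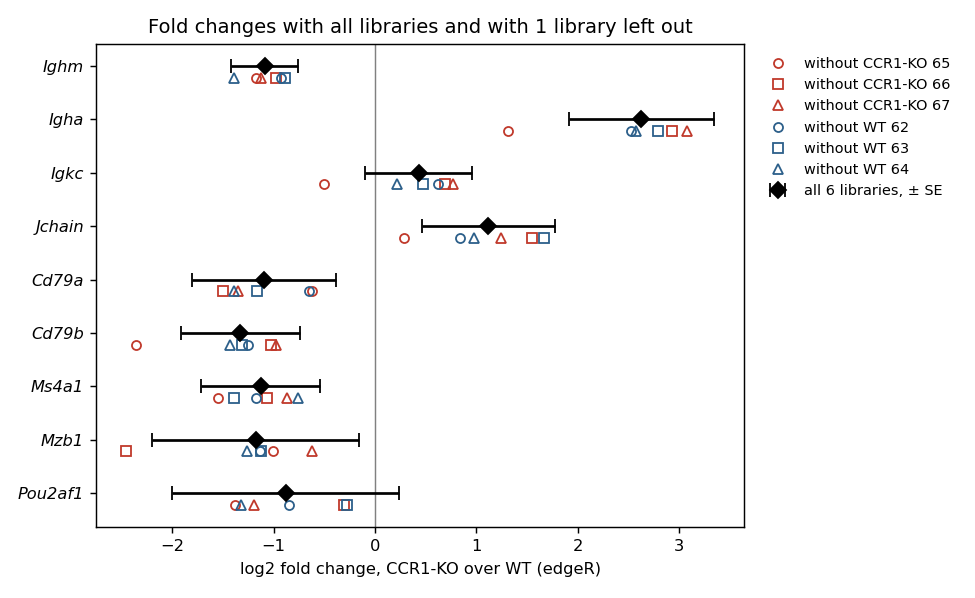
Log2 fold change of CCR1-KO over WT (horizontal axis, edgeR) for each transcript. Black diamonds are the fit on all 6 libraries with the SE, and open symbols are fits with 1 library left out. Leaving out CCR1-KO replicate 65 moves Igha to 1.31, Igkc to -0.50, Jchain to 0.29 and Cd79b to -2.36.

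The signalling chains of the B cell receptor had low counts, and neither passed. Reads of Cd79b, one of the signalling chains, numbered 73, 16 and 12 in CCR1-KO replicates 65, 66 and 67, against 105, 106 and 87 in WT. This was 0.913, 0.245 and 0.201 CPM in CCR1-KO, against 1.28, 1.20 and 0.989 CPM in WT, with no overlap and with CCR1-KO replicate 65 close to WT. The log2 fold change was -1.33 ± 0.59 (edgeR adjusted p = 0.22). Without CCR1-KO replicate 65 it was -2.36 and passed (edgeR adjusted p = 0.015), as did 13.2% of all genes in that fit.

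Cd79a, its partner chain, did not follow the same order. It had 6, 32 and 26 reads in CCR1-KO, against 90, 57 and 35 in WT. CCR1-KO replicate 65, the CCR1-KO library with the most Cd79b reads, had the fewest Cd79a reads (exact 95% Poisson interval 2.20 to 13.1), while the other CCR1-KO livers held more Cd79a than Cd79b reads. The groups overlapped, because CCR1-KO replicates 66 and 67 at 0.490 and 0.435 CPM lay above the 0.398 CPM of WT replicate 64 (log2 fold change -1.10 ± 0.71, edgeR adjusted p = 0.38).

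Ms4a1, which encodes the B cell surface protein CD20, had 24, 12 and 7 reads in CCR1-KO and 34, 24 and 57 in WT. In CPM the highest CCR1-KO liver, replicate 65 at 0.300, lay above WT replicate 63 at 0.271, so the groups overlapped (log2 fold change -1.13 ± 0.59, edgeR adjusted p = 0.28). Per length it was among the lowest of the 9, at 0.01 to 0.05 FPKM in CCR1-KO and 0.04 to 0.11 FPKM in WT.

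Mzb1 (chromosome 18, 35647267 to 35649367, minus strand) encodes a chaperone of the endoplasmic reticulum in marginal zone B cells and plasma cells. It had 8, 19 and 0 reads in CCR1-KO and 26, 28 and 23 in WT. The 0 in CCR1-KO replicate 67 allows up to 3 reads, or 0.0502 CPM. SPATA24 overlaps it on the same strand and had 19, 0 and 0 reads in CCR1-KO and 0, 0 and 20 in WT, so the assignment of reads to Mzb1 is uncertain. The log2 fold change was -1.18 ± 1.02 (edgeR adjusted p = 0.52). Pou2af1, the octamer coactivator, had 19, 0 and 13 reads in CCR1-KO and 24, 42 and 7 in WT. Its 0 in CCR1-KO replicate 66 allows up to 3 reads, or 0.0460 CPM, and WT replicate 64 lay below the other CCR1-KO livers, so the groups overlapped (log2 fold change -0.88 ± 1.12, edgeR adjusted p = 0.68). For both genes the SE is nearly as large as the fold change or larger, and a difference was not detectable in these libraries. How much of the SE came from depth and how much from spread between livers was not tested.

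Within each library the balance of heavy chain classes can be read without scaling between libraries. There was 3.85, 1.26 and 0.485 Igha read per Ighm read in CCR1-KO replicates 65, 66 and 67, against 0.105, 0.142 and 0.258 in WT replicates 62, 63 and 64. The lowest CCR1-KO ratio was above the highest WT ratio. This had to be so, because in CPM Igha lay higher and Ighm lower in every CCR1-KO liver. In FPKM the ratios were 2.73, 0.891 and 0.339 in CCR1-KO against 0.0732, 0.0993 and 0.179 in WT. That order was also given in advance, because FPKM and reads stood in a fixed ratio. Neither order is a further result. Over the constant reads of Ighm, Ighd, the 4 gamma genes and Igha, the alpha share was 60.6%, 41.8% and 26.6% in CCR1-KO, against 6.88%, 9.89% and 13.8% in WT. The exact 95% binomial (Clopper-Pearson) intervals of the nearest pair were 22.1% to 31.5% in CCR1-KO replicate 67 and 11.1% to 16.8% in WT replicate 64. These intervals cover counting error only. The alpha share is built from the same Igha and Ighm reads as the ratios, so it is not an independent result either.

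The delta share lay on the other side. It was 3.51%, 0.774% and 3.08% in CCR1-KO, against 18.5%, 11.8% and 11.7% in WT, again with no overlap. Alpha reads are part of the same total, and per Ighm read the groups overlapped: there was 0.223, 0.0234 and 0.0561 Ighd read in CCR1-KO, against 0.283, 0.169 and 0.220 in WT, so CCR1-KO replicate 65 lay above WT replicates 63 and 64. The mu share was 15.7%, 33.1% and 54.9% in CCR1-KO, against 65.6%, 69.5% and 53.3% in WT, so CCR1-KO replicate 67 lay within the WT range. The gamma share overlapped, at 20.1%, 24.4% and 15.4% in CCR1-KO and 8.97%, 8.86% and 21.2% in WT. Among gamma genes, Ighg2b had 172, 82 and 13 reads in CCR1-KO and 57, 16 and 24 in WT (log2 fold change 1.67 ± 0.82, edgeR adjusted p = 0.25). Of 6 tested constant genes outside the 9, edgeR called 0, with 1 at an unadjusted p under 0.05, Ighd. Every CCR1-KO liver lay below WT for 2 of them, Ighd and Iglc3, beside 17.4% of all genes. Both gaps were narrow. Ighd was at 0.775 CPM in CCR1-KO replicate 65 and 0.784 CPM in WT replicate 64. Iglc3 was at 0.167 CPM (10 reads) in CCR1-KO replicate 67 and 0.182 CPM (15 reads) in WT replicate 62. With the surrogate light chain gene Vpreb3 the list has 7 tested genes, of which DESeq2 gave an adjusted p for 4 and limma for 1, with 0 calls in both. These shares were compared after the values of Ighm and Igha had been seen, and carry no test.

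**Figure D3:**
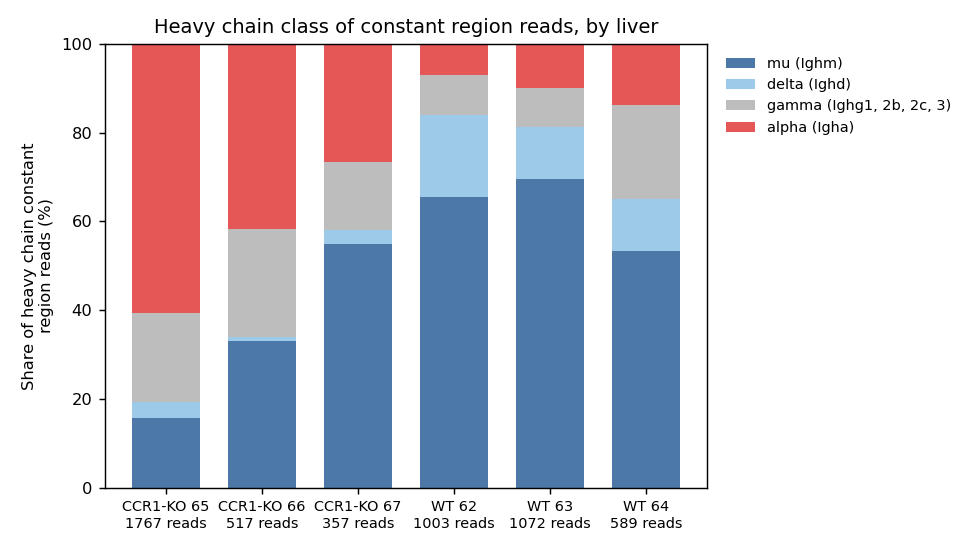
Share of heavy chain constant region reads (vertical axis, percent) by class in each liver, CCR1-KO at the left and WT at the right, with the number of heavy chain reads under each bar. The alpha share is 26.6% to 60.6% in CCR1-KO and 6.88% to 13.8% in WT, and the delta share 0.774% to 3.51% in CCR1-KO and 11.7% to 18.5% in WT.

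Variable segments give a second, thinner view of the same loci. The table lists 110 of them (50 Ighv, 57 Igkv and 3 Iglv), of which 3 passed the filter and 0 were called by edgeR, with 0 at an unadjusted p under 0.05. Their reads summed to 692, 194 and 159 in CCR1-KO, against 233, 224 and 174 in WT, and CCR1-KO replicate 65 was the highest here too. In that liver 68 segments had at least 1 read, against 34 and 30 in the other CCR1-KO livers and 29 to 36 in WT. The most abundant segment held 6.79% to 7.73% of segment reads in CCR1-KO and 8.05% to 12.9% in WT. In each library the variable reads were thus spread over many segments.

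Set against Ptprc, the CD45 gene, taken here as a pan-leukocyte gene, the 9 genes were ordered in another way. Whether plasma cells carry as much Ptprc RNA as other leukocytes was not tested, so these values are not levels per plasma cell. Igha had 97.6, 65.7 and 29.1 reads per 100 Ptprc reads in CCR1-KO, against 6.43, 8.89 and 8.04 in WT. Igkc had 71.6, 59.6 and 42.2 in CCR1-KO, against 36.0, 29.4 and 22.8 in WT. Jchain had 28.1, 12.5 and 31.2 in CCR1-KO, against 4.10, 11.6 and 6.65 in WT. For these 3 genes every CCR1-KO liver lay above every WT liver, narrowly for Jchain, as for 17.0% of all tested genes on this scale. Igkc and Jchain overlapped in CPM. Ighm overlapped on this scale, at 25.3, 52.0 and 59.9 in CCR1-KO and 61.3, 62.4 and 31.2 in WT, as did Cd79a, Ms4a1, Mzb1 and Pou2af1. Cd79b stayed apart and lower, at 6.65, 4.86 and 3.67 in CCR1-KO, against 9.79, 8.89 and 8.63 in WT, as 2.87% of all tested genes did. Ptprc itself had 1097, 329 and 327 reads in CCR1-KO and 1073, 1193 and 1008 in WT (log2 fold change -0.64 ± 0.37, edgeR adjusted p = 0.32), so division by it lifts values in CCR1-KO replicates 66 and 67.

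Other B cell genes lay mostly on the low side without passing. Of 22 tested B cell identity genes 0 were called and 6 had an unadjusted p under 0.05, beside 24.4% of all genes. There were 21 negative fold changes and 1 positive one, with a median of -1.02 beside 0.0017 over all genes, of which 49.9% were negative. The positive one was Bach2, a repressor that keeps B cells from becoming plasma cells, with 562, 1682 and 318 reads in CCR1-KO and 377, 423 and 504 in WT. DESeq2 called 1 of the 16 it gave an adjusted p, higher, and limma 0 of 7. In 8 of the 22 (36.4%) every CCR1-KO liver lay below every WT liver, against 17.4% of all genes. The 8 pan-leukocyte genes described below had a like share, 3 of 8 (37.5%), and all 8 of their fold changes were negative. Spib, an Ets factor of B cells, had 23, 13 and 7 reads in CCR1-KO and 49, 36 and 58 in WT (log2 fold change -1.44 ± 0.52, edgeR adjusted p = 0.14). Cd22, an inhibitory receptor, had 69, 43 and 12 reads in CCR1-KO and 112, 164 and 116 in WT (log2 fold change -1.38 ± 0.51, edgeR adjusted p = 0.15). Ccr6, a chemokine receptor of naive B cells, had 4, 0 and 0 reads in CCR1-KO and 19, 12 and 12 in WT. It passed the filter on low counts through its WT reads only. Cd180 had 182, 47 and 70 reads in CCR1-KO and 238, 248 and 248 in WT. Without CCR1-KO replicate 65, 3 of 23 tested genes of the list were called, all lower (Cd72, Cd180 and Cxcr5, named after their values were seen), beside 13.2% of all genes.

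Of 18 tested genes of B cell receptor signalling, 0 were called and 3 had an unadjusted p under 0.05 (median log2 fold change -0.43). Blnk, the adaptor that couples the receptor to its kinases, came nearest, at 89, 36 and 105 reads in CCR1-KO and 315, 261 and 380 in WT (log2 fold change -1.70 ± 0.41, edgeR adjusted p = 0.052). Cd81, a tetraspanin expressed by many cell types, had a log2 fold change of -0.58 ± 0.15 (edgeR adjusted p = 0.062). The phosphatase Ptpn6 was at -0.50 ± 0.17 and the phospholipase Plcg2 at -0.91 ± 0.40, neither of which passed. DESeq2 and limma each called 2 of the list lower. Without CCR1-KO replicate 65, edgeR called 5 of the 18, all lower, beside 13.2% of all genes.

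Genes that attract B cells or keep them alive gave no call either, 0 of 19 with 1 at an unadjusted p under 0.05 (median log2 fold change -0.22). DESeq2 called 0 and limma 1, lower. The 1 gene was Ccl28, a chemokine that draws IgA-secreting cells to mucosa, with 7, 0 and 4 reads in CCR1-KO and 40, 23 and 23 in WT (log2 fold change -2.64 ± 0.95, edgeR adjusted p = 0.14). Ccl28 passed the filter on low counts through its WT reads only. Tnfrsf13b, the receptor TACI, was at -1.18 ± 0.57, Cxcr4 at -0.83 ± 0.38 and Il6 at 2.48 ± 1.39 on the log2 scale, and none of them passed. Among 8 genes that carry or bind immunoglobulin, Fcer1g (log2 fold change -0.99 ± 0.29, edgeR adjusted p = 0.089) and Fcgr1 (log2 fold change -0.95 ± 0.40, edgeR adjusted p = 0.20) had an unadjusted p under 0.05, and 0 were called by edgeR. DESeq2 and limma each called 1, lower. Pigr, which moves polymeric IgA across epithelia, had 100566, 73641 and 74897 reads in CCR1-KO and 95483, 88704 and 91376 in WT (log2 fold change 0.19 ± 0.13, edgeR adjusted p = 0.44). Of 4 tested germinal centre genes edgeR called 0, DESeq2 1 (lower) and limma 0, and S1pr2 alone had an unadjusted p under 0.05 (log2 fold change -1.11 ± 0.37, edgeR adjusted p = 0.12).

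**Figure D4:**
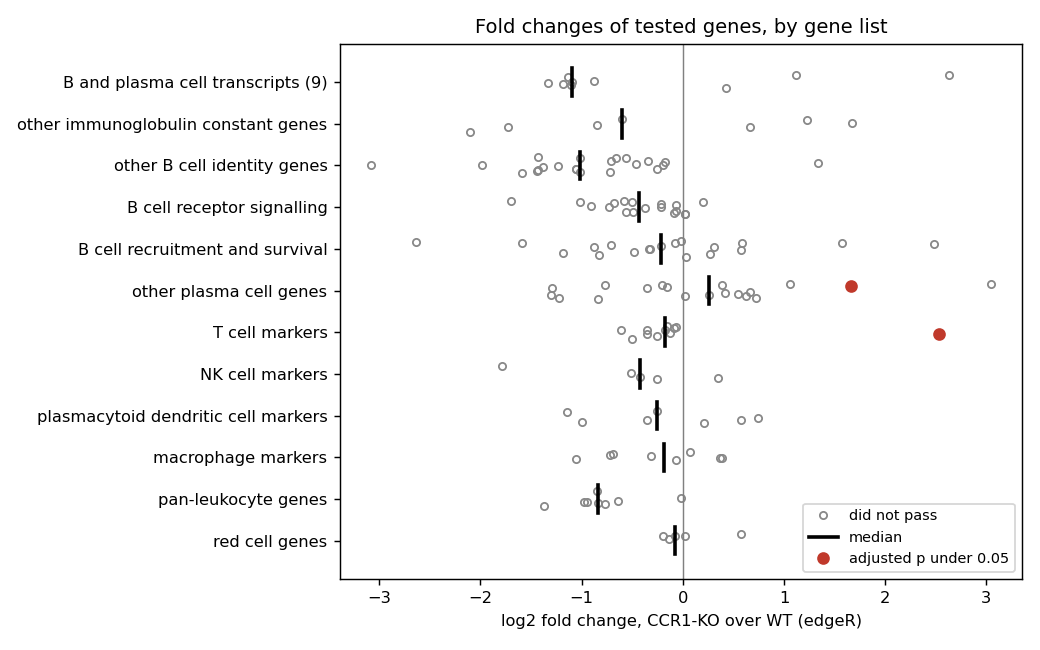
Log2 fold change of CCR1-KO over WT (horizontal axis, edgeR) of each tested gene, by list. Filled red points passed an adjusted p of 0.05, open points did not, and black bars are medians. The B cell identity genes have a median of -1.02 with no call, and Creld2 and Cd4 are the called genes shown.

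Among 19 tested plasma cell genes 1 rose, 0 fell and 18 did not pass (median log2 fold change 0.26), beside 6.44% of all genes. At an unadjusted p under 0.05 there were 9, beside 24.4% of all genes, and DESeq2 called 7 higher and 1 lower, beside 14.4%. Without CCR1-KO replicate 65, edgeR called 4 higher (Creld2, Derl3, Xbp1 and Ell2) and 1 lower (Slamf7), beside 13.2% of all genes. Creld2, a chaperone of the endoplasmic reticulum, rose to 5241, 3858 and 7422 reads in CCR1-KO, against 1365, 2528 and 2961 in WT (log2 fold change 1.66 ± 0.35, edgeR adjusted p = 0.035). Derl3, a protein of endoplasmic reticulum degradation, had 596, 219 and 2260 reads in CCR1-KO and 115, 157 and 236 in WT (log2 fold change 3.05 ± 0.83, edgeR adjusted p = 0.071). Hsp90b1 was at 0.66 ± 0.19 and Ell2 at 0.62 ± 0.18 on the log2 scale, and neither passed. Genes of this list are not all restricted to plasma cells: Hsp90b1 had 42988 to 68753 reads per library, against 41 to 308 for Jchain. Which cells the reads of Creld2, Derl3, Hsp90b1, Ell2 and Xbp1 came from was not tested. Creld2 and Derl3 were highest in CCR1-KO replicate 67. The regulators of plasma cell fate differed among themselves. Xbp1 had 11669, 30371 and 17024 reads in CCR1-KO and 10801, 12292 and 14147 in WT (log2 fold change 1.06 ± 0.36, edgeR adjusted p = 0.13), and passed at 1.38 without CCR1-KO replicate 65. Prdm1 had 50, 29 and 17 reads in CCR1-KO and 80, 93 and 102 in WT, and Irf4 had 29, 7 and 0 in CCR1-KO and 25, 48 and 30 in WT. Xbp1, Prdm1 and Irf4 were chosen after their values were seen.

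Markers of other immune cells were measured beside these values. Of 8 pan-leukocyte genes edgeR called 0 (4 at an unadjusted p under 0.05, median log2 fold change -0.84), DESeq2 and limma 2 each, lower, and without CCR1-KO replicate 65, 7 were, all lower, beside 13.2% of all genes. Cd53 (log2 fold change -0.95 ± 0.25, edgeR adjusted p = 0.062) and Coro1a (log2 fold change -1.37 ± 0.37, edgeR adjusted p = 0.068) came nearest. Plasmacytoid dendritic cells express Jchain as well. Their 8 markers summed to 86.1 to 128 CPM in CCR1-KO and 81.8 to 98.6 CPM in WT, almost all of it Bst2, which is not restricted to them. The defining marker Siglech had 51, 26 and 33 reads in CCR1-KO and 54, 81 and 40 in WT, and edgeR called 0 of 7 tested markers, with 0 at an unadjusted p under 0.05. DESeq2 called 0 of 5 and limma 0 of 1. T cell markers summed to 4.41 to 8.29 CPM in CCR1-KO and 2.76 to 7.20 CPM in WT, and 1 of 11 tested was called. This was Cd4, with 129, 172 and 133 reads in CCR1-KO and 31, 39 and 26 in WT (log2 fold change 2.53 ± 0.34, edgeR adjusted p = 0.011). Cd4 alone was 2.636 of 4.414 CPM in CCR1-KO replicate 66 and 2.225 of 4.417 CPM in replicate 67, against 0.296 to 0.441 CPM in WT. The T cell sum thus leans on 1 gene there, and 10 of the 11 fold changes were negative (median -0.18). Without CCR1-KO replicate 65 that median was -1.33, with 1 of 11 called, higher, beside 13.2% of all genes. The receptor chain genes Cd3d, Cd3e, Cd3g and Trac did not pass. The 8 macrophage markers summed to 143 to 330 CPM in CCR1-KO and 208 to 310 CPM in WT with 0 called by edgeR (1 at an unadjusted p under 0.05) and 1 each, lower, by DESeq2 and limma. Without CCR1-KO replicate 65, edgeR called 3 of the 8 lower (median log2 fold change -1.06), beside 13.2% of all genes. The 5 red cell genes summed to 245 to 672 CPM in CCR1-KO and 291 to 494 CPM in WT. For them 0 were called by edgeR (1 at an unadjusted p under 0.05), DESeq2 or limma. With CCR1-KO replicate 65 left out, edgeR called 2 of the 5 lower, beside 13.2% of all genes. The 7 NK cell markers summed to 0.659 to 2.96 CPM in CCR1-KO and 1.56 to 2.76 CPM in WT, and the 7 neutrophil markers to 2.03 to 4.50 CPM in CCR1-KO and 3.69 to 4.65 CPM in WT, with Ly6g at 0 reads in 5 of the libraries. In edgeR 0 of 5 tested genes of either list were called, with 0 at an unadjusted p under 0.05. Without CCR1-KO replicate 65, 0 of 6 NK cell markers (median log2 fold change -1.85) and 0 of 5 neutrophil markers (median -0.61) were called. DESeq2 called 0 of 4 NK cell and 0 of 2 neutrophil markers, and limma 0 of 1 and 0 of 2. What part blood or other leukocytes had in the values of the 9 transcripts was not tested.

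**Figure D5:**
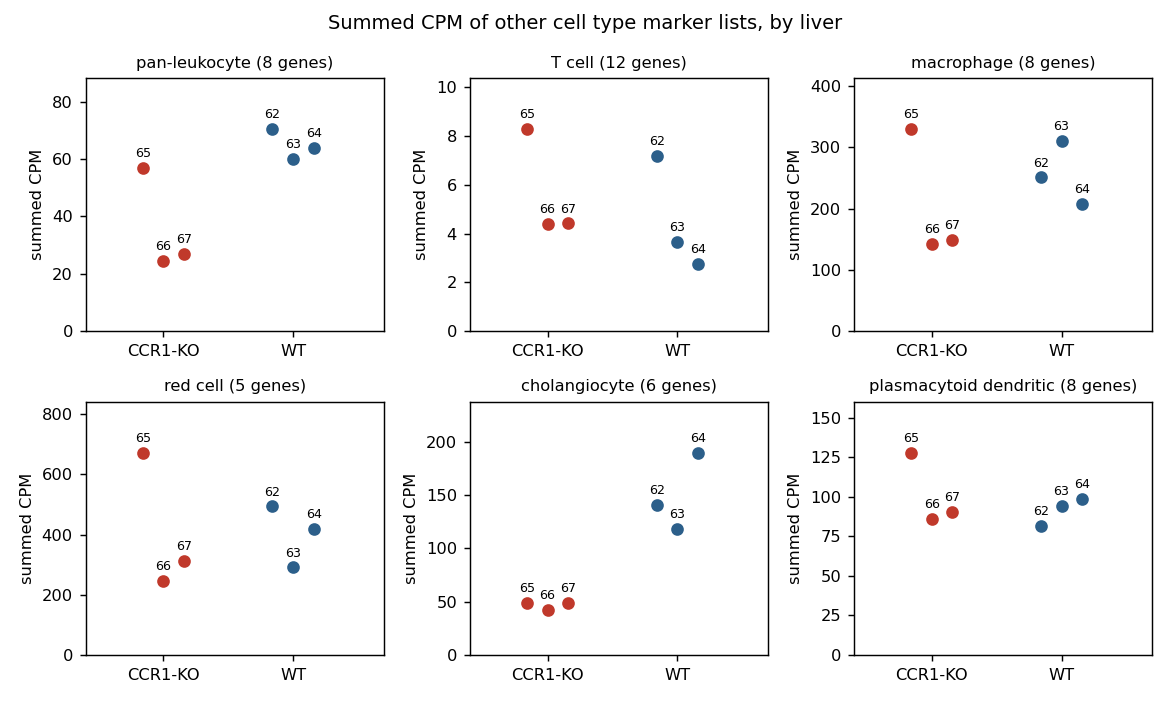
Summed CPM (vertical axis, linear from 0) of marker lists of other cell types in each liver, numbered by replicate, CCR1-KO left and WT right. Pan-leukocyte genes are at 24.6 and 27.1 CPM in CCR1-KO replicates 66 and 67 and at 56.9 CPM in replicate 65, against 60.2 to 70.5 CPM in WT.

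Tissue cell markers showed calls that the 9 transcripts did not. Of 6 cholangiocyte genes 1 fell, Spp1 (log2 fold change -1.76 ± 0.19, edgeR adjusted p = 0.0074), beside 6.44% of all genes called. DESeq2 and limma each called 2 lower, beside 14.4% and 10.5% of all genes. The sum of the 6 cholangiocyte genes was 42.2 to 49.1 CPM in CCR1-KO, against 118 to 190 CPM in WT. Most of it was Spp1, at 37.1 to 44.5 CPM in CCR1-KO and 111 to 180 CPM in WT. The sum thus follows 1 gene more than the list, whose median log2 fold change was -0.77. Which cells the Spp1 reads came from was not tested. Of 6 stellate cell genes 4 fell, beside 6.44% of all genes called. DESeq2 called 4 lower and limma 3 lower. Without CCR1-KO replicate 65 edgeR called 2 lower, beside 13.2% of all genes. Of 6 endothelial genes 0 passed in edgeR (1 at an unadjusted p under 0.05), DESeq2 or limma. Of 6 hepatocyte genes 3 rose (Tat, Ass1 and Cps1), beside 6.44% of all genes called, and DESeq2 and limma each called 3 higher. Alb, which defines the tissue as liver, had at least 3388643 reads in every library.

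As a description of the order of the 6 livers, the mean of the standardized log2(CPM + 0.5) values of the 9 transcripts was 0.33, -0.52 and -0.63 in CCR1-KO replicates 65, 66 and 67, and 0.45, 0.48 and -0.12 in WT replicates 62, 63 and 64. CCR1-KO replicate 65 lay within the WT range of this mean, which averages genes whose fold changes differed in direction. For Igha the same liver was the farthest from WT, at 13.4 CPM against 0.838 to 1.20 CPM in WT. The genes with the most similar order over the 6 livers, immunoglobulin genes left out, were the predicted models Gm37285 and Gm29571 (Pearson r = 0.995 for both), the B cell homing receptor Cxcr5 (r = 0.993), the transcription factor Lmo2 (r = 0.992) and the receptor Gpr174 (r = 0.992). With 6 points shared by all genes, 92 genes reached an r of at least 0.95, so the ranking is only descriptive. Cxcr5 had 21, 0 and 0 reads in CCR1-KO and 28, 34 and 10 in WT.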

How the data were processed

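RNA sequencing of polyadenylated liver RNA was used, with dUTP marking of the second strand, per the labels' protocols. Per the submitters' processing notes edgeR, DESeq2, StringTie 2.1.6, HISAT2 2.2.1 and cutadapt 1.9 were used, in roles that are not stated. The build named there is GRCh38, but the table's identifiers and positions are of mouse GRCm38. Per the file headers, the deposited table holds for each gene an FPKM value and a read count that is not normalized. FPKM and count stood in a fixed ratio in each library (largest SD of the log2 ratio 0.000951, 3308 genes of 2000 reads or more). How reads matching several genes were counted, and whether strand was used, the sources used here do not give, and reads of overlapping, antisense and near-identical immunoglobulin genes are therefore uncertain.

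Groups came from the sample titles. Replicates are numbered animals, and p-values measure the spread between these libraries. Every pair within a group differed by more than sampling noise (chi-square per degree of freedom of at least 62.8). Counts were tested across all genes with edgeR 4.0.16 in R 4.3.3 (filterByExpr with minimum count 10 and minimum total 15, TMM factors, glmQLFit and glmQLFTest), with Benjamini-Hochberg adjustment. SE was taken as the size of the log2 fold change divided by the root of the F statistic. Alternatives were DESeq2 1.42.0, limma 3.58.1 on log2(FPKM + 0.5), where 3 libraries had to reach an FPKM of 0.5, other scalings and filters, and each library left out. Exact permutation tests and intervals (95%) used SciPy 1.17.1, and 0 reads were given a limit of 3. The script was tested on simulated data.

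The members, gene lists and tests were chosen with earlier results of these data known. In each list the 4 genes of smallest p, or those past the threshold where 5 or fewer passed, could be named, and likeness was ranked by Pearson r with the members' mean standardized log2(CPM + 0.5). Lists were described by counts and medians. Promoter sequences are RefSeq's.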

Additional observations from a re-analysis of the deposited data

How the results depend on the processing

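The number of genes called, 1141 with edgeR, was 2548 with DESeq2, 735 with no filter on low counts and 239 with limma on log2(FPKM + 0.5) without a filter, and ran from 102 to 2419 with 1 library left out (2419 without CCR1-KO replicate 65). Among the 9 transcripts the count of 0 became 2 with DESeq2 and 1 with limma on log2(FPKM + 0.5), and was 0 to 1 with 1 library left out: Cd79b without CCR1-KO replicate 65 and Igha without CCR1-KO replicate 67. Over 14 alternatives, limited to those in which a gene was tested, the single fold changes gave 114 values. Of these, 105 kept direction without a change of side of the threshold, 5 passed it, and 4 turned direction. In DESeq2, Mzb1 and Pou2af1 had no adjusted p and are counted among the 105 by direction alone. The 4 that turned direction were all Igkc. It was at -0.50 without CCR1-KO replicate 65, at -0.12 with limma on log2(FPKM + 0.5) with and without a filter, and at -0.14 with limma on log2(FPKM + 0.1). The cause was not tested. With 1 library left out the values of Igkc ran from -0.50 to 0.77. Adjusted p over the alternatives ran from 0.017 to 0.28 for Ighm, from 0.00044 to 0.36 for Igha and from 0.015 to 0.43 for Cd79b. The fold change of Igha ran from 1.16 to 3.08, and those of Mzb1 and Pou2af1 from -2.46 to -0.34 and from -1.38 to -0.14. In limma with a filter, 3 of the 9 (Ighm, Igkc and Cd79b) were tested. The list counts without CCR1-KO replicate 65 were added after seeing the data. No paired analysis was possible because the CCR1-KO and WT groups share no replicate number. Cd79a, Ms4a1, Mzb1 and Pou2af1 had fewer than 100 reads in every library, so counting error is a part of their spread between livers.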
